A study of Mus musculus with 4 samples.

Results

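Ribosome biogenesis and nucleolar genes were followed in fibroblasts undergoing reprogramming with and without activated AKT. The group comprised 34 genes out of 34816 genes or transcripts named on the array, and a gene entered it when its symbol stood on a list of nucleolar transcription, modification and assembly factors. All 34 were found, through 54 probes. The brightest probe of each of the 34 genes was well above background on all 4 arrays, so the filter on dim probes removed none of them.

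The study activated AKT during the induction of pluripotent stem cells, and gene expression was profiled at 8 days postinfection (dpi) with 4 single-colour arrays, 1 per group. All groups started from the same kind of cell, mouse embryonic fibroblasts pooled from several male E13.5 embryos, with an EGFP reporter driven by Oct4 regulatory sequence. OSK cells received retroviruses for Oct4, Sox2 and Klf4, and OSKA cells received AKT-MER in addition, a myristoylated AKT joined to a modified estrogen receptor that is switched on by 4-hydroxytamoxifen (4OHT). Each kind of cell was given 4OHT or its vehicle, ethanol, from 3 dpi, which makes OSKA cells with 4OHT the AKT-activated group and OSKA cells without 4OHT the nonactivated group. OSK cells with 4OHT show what the ligand does in cells that lack AKT-MER. Groups follow the titles of the samples. For OSKA cells with 4OHT a description contradicts the title, since it calls AKT-MER not activated, and here the title was followed. Every culture was a mixed population, since retroviral infection and reprogramming reach only some of the cells, and in such bulk RNA fewer cells that express a gene and less RNA per cell cannot be told apart.

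Levels are given as log2 intensity minus the 75th percentile of the same array, so that 0 is the level that 75% of the spots do not exceed. Between 52.4% and 55.4% of the spots that were not controls were well above background on each array, and no spot was saturated. Fibroblast markers (9 of 9 on the list, Col1a1 and Vim among them) were well above background on all arrays, with a summed linear level between 1203 and 1379 times the 75th percentile. Of 11 pluripotent cell markers, 7 were well above background, with a summed level between 4.94 and 6.81, while Zfp42, Esrrb, Dppa2 and Dppa4 were not well above background on any array. With 1 array per group there is no replicate check on any difference below, no test was run, and the position of the array on the slide and the group cannot be told apart. Probes that were spotted 10 times gave an SD of 0.09 (log2) for a difference between arrays, and the error model of the scanner software gave a median of 0.20 for a difference of a member. Neither covers the variation between cultures.

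A ribosome is built in the nucleolus, where RNA polymerase I transcribes the large ribosomal RNA precursor, small nucleolar ribonucleoproteins (snoRNPs) guide its methylation and pseudouridylation, and assembly factors fold and cut it while ribosomal proteins join. Transcription of the factors in this pathway is a classical target of MYC, and the supply of ribosomal RNA and ribosomal proteins is raised by mTORC1, the growth kinase complex downstream of AKT. Dividing cells and pluripotent stem cells have large, active nucleoli. The comparison of the 4 groups therefore asks whether the messenger RNAs of this growth programme were higher where AKT was active.

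MYC and its partner MAX bind the E-box, and the sequence CACGTG was looked for in promoter windows from 250 bases before to 50 bases after the transcription start (RefSeq, GRCm38.p6). The motif reads the same on both strands. Windows were found for 28 of the 34 members, and 7 of these 28 genes (25%) held it. Of 11238 genes that had a window and were measured on all 4 arrays, 1275 (11.3%) held it, as did 8.09% of all 27025 genes with a window. In other lists the share was 25% of 12 other polymerase I genes, 26.1% of 23 mTORC1 pathway genes, 27.3% of 22 translation initiation factors, 36.4% of 11 MYC and MAX network genes and 37.5% of 24 genes of nucleotide supply and other MYC targets. It was lower than in the members for 36 other small subunit genes (22.2%), 38 other large subunit genes (18.4%), 12 nuclear exosome genes (8.33%), 68 cytosolic (8.82%) and 69 mitochondrial ribosomal protein genes (7.25%), and 0 of 7 snoRNP assembly genes held it. All matches fell among assembly factors, in 4 of 6 small subunit genes and 3 of 6 large subunit genes, and none of the 5 polymerase I genes, 8 snoRNP genes or 3 abundant nucleolar genes with a window had one. The 7 matches are printed to show where the E-box lies in the genes that hold it, read along the strand of the gene with the E-box in capitals.
Nop2 (chr6:125131813-125131838, plus strand, 60 bases before the start): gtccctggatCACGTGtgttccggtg
Pes1 (chr11:3963967-3963992, plus strand, from base 3 of the transcript): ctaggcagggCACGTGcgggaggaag
Wdr43 (chr17:71616222-71616247, plus strand, from base 18): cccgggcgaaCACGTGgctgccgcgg
Ltv1 (chr10:13193094-13193119, minus strand, from base 29): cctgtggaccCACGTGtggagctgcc
Grwd1 (chr7:45830740-45830765, minus strand, from base 35): gccggagtcgCACGTGtgaaaccgga
Utp20 (chr10:88826765-88826787, minus strand, from base 38): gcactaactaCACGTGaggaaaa
Pno1 (chr11:17211540-17211562, minus strand, from base 38): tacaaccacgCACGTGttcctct
A match is a string of letters in this window and not a measured binding site. Tcof1, Fbl, Npm1, Rrp12, Bop1 and Rrs1 were not searched.

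The levels of the members spanned a wide range. Their means over the 4 arrays ran from −1.79 (Rrp12) to 6.96 (Ubtf), with a median of 2.23, which lay above 70.2% of the 19540 genes measured on all arrays. Levels of different genes rest on different probes and cannot be ranked as RNA amounts. In the sentences below the 4 values of a gene follow the order OSK without 4OHT, OSK with 4OHT, OSKA without 4OHT and OSKA with 4OHT.

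Among the genes for transcription by RNA polymerase I, Polr1a, which encodes the largest subunit of the enzyme, lay at 1.71, 1.51, 1.58 and 1.47. Polr1b, for the other large catalytic subunit, lay at 0.09, −0.39, −0.37 and −0.77. Both were highest in OSK cells without 4OHT and lowest in AKT-activated cells, and for Polr1b the distance between these arrays was much the larger. Polr1e, for a smaller subunit, stayed close together at −0.03, −0.07, −0.14 and 0.03. Taf1d, a subunit of the selectivity factor that brings the polymerase to the ribosomal DNA promoter, lay at 0.65, 0.60, 0.47 and 0.39. Ubtf, the upstream binding factor that keeps ribosomal DNA open, stood at 6.65, 6.99, 6.97 and 7.21. It was the only gene of this role with its highest level in AKT-activated cells apart from Polr1e, but its other probe lay at 0.51, 0.49, 0.31 and 0.23, lowest on the array where the brightest probe was highest. Tcof1, which encodes treacle, the nucleolar scaffold mutated in Treacher Collins syndrome, lay at 3.23, 3.24, 3.13 and 2.98.

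Of the box C/D snoRNP proteins, which methylate ribosomal RNA, fibrillarin (Fbl), the methyltransferase itself, lay at 2.84, 2.81, 2.81 and 2.65. The core proteins Nop56 and Nop58 lay at 4.14, 4.14, 4.09 and 4.03 and at 2.89, 2.74, 2.59 and 2.61. By their brightest probes, Fbl and Nop56 were lowest in AKT-activated cells and Nop58 in OSKA cells without 4OHT. The other probes of Nop56 were also lowest in OSKA cells without 4OHT, and gave 0.02 and 0.06 with 4OHT in OSKA cells. Rrp9, a protein of the U3 snoRNP, lay at 0.61, 0.44, 0.45 and 0.55. Nolc1, a chaperone that shuttles snoRNPs, had the smallest range of all members by its brightest probe, 0.04, at 2.64, 2.65, 2.67 and 2.68. Its other probe lay at −0.77, −1.19, −1.12 and −1.09, with OSK cells without 4OHT apart from the rest.

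The box H/ACA snoRNP turns uridine into pseudouridine, and its proteins are shared with telomerase. Its catalytic subunit dyskerin (Dkc1, probe at chrX:72354473-72354532 in NCBI37), mutated in dyskeratosis congenita, had the widest range of all members, 0.97, at −0.65, −0.98, −1.19 and −1.62. Each step along this order of arrays was downwards. Gar1 followed the same order at 3.51, 3.40, 3.38 and 3.07. Nop10 lay at 3.24, 3.26, 3.13 and 2.89 and was also lowest in AKT-activated cells. Nhp2 ran the other way, at 4.26, 4.36, 4.31 and 4.45, with its highest level in AKT-activated cells.

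Among the abundant nucleolar proteins, nucleophosmin (Npm1, probe at chr11:33052565-33052624), a histone and ribosome chaperone, lay at 7.12, 6.97, 6.81 and 6.41. Nucleolin (Ncl), which binds the ribosomal RNA precursor, lay at 4.90, 4.82, 4.76 and 4.64. Nucleostemin (Gnl3), a GTP-binding protein of stem and tumour cells, lay at 1.22, 0.95, 0.89 and 0.66. These 3 genes shared the downward order seen in Dkc1 and Gar1. The RNA helicase gene Ddx21 lay at 1.2, 1.27, 1.13 and 1.13, with little difference between the arrays.

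Among the small subunit factors, Utp20 and Wdr43 belong to the processome that forms on the nascent precursor, and they lay at −0.46, −0.54, −0.59 and −0.74 and at 1.55, 1.62, 1.44 and 1.39. Noc4l, another nucleolar factor, lay at 0.95, 0.99, 0.97 and 0.81. All 3 were lowest in AKT-activated cells. The late factors behaved differently from each other. Nob1, the endonuclease that makes the final cut of the small subunit RNA, lay at −0.18, −0.47, −0.53 and −0.78. Its binding partner Pno1 (probe at chr11:17103532-17103591) lay at 2.72, 2.71, 2.73 and 3.04, and Ltv1, which leaves the particle after export, at 3.11, 2.94, 2.91 and 3.12. Nob1 was therefore lowest, and Pno1 and Ltv1 highest, in AKT-activated cells. Rrp12, an export factor, was the dimmest member at −1.97, −1.86, −1.67 and −1.66.

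Among the large subunit factors, Pes1, Bop1 and Wdr12 form the PeBoW complex. Pes1 lay at 2.58, 2.29, 2.35 and 2.26, Bop1 at 2.68, 2.69, 2.58 and 2.58, and Wdr12 at 2.13, 2.15, 2.05 and 2.02. The brightest Wdr12 probe is placed on chromosome 7 in the files, away from the gene on chromosome 1. The RNA methyltransferase gene Nop2 lay at 3.45, 3.38, 3.32 and 3.15, and Grwd1, for a histone and ribosomal protein chaperone, at 0.88, 0.88, 0.71 and 0.67. Apart from Bop1, these were lowest in AKT-activated cells. Ebna1bp2 lay at 4.43, 4.43, 4.26 and 4.34. Rrs1, which helps to bring the small 5S particle into the large subunit, lay at 1.90, 1.57, 1.45 and 1.63, and Rrp1b at −0.37, −0.17, −0.32 and −0.60. Rrs1 stood out on the array of OSK cells without 4OHT, and Rrp1b was lowest in AKT-activated cells.

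**Figure D1:**
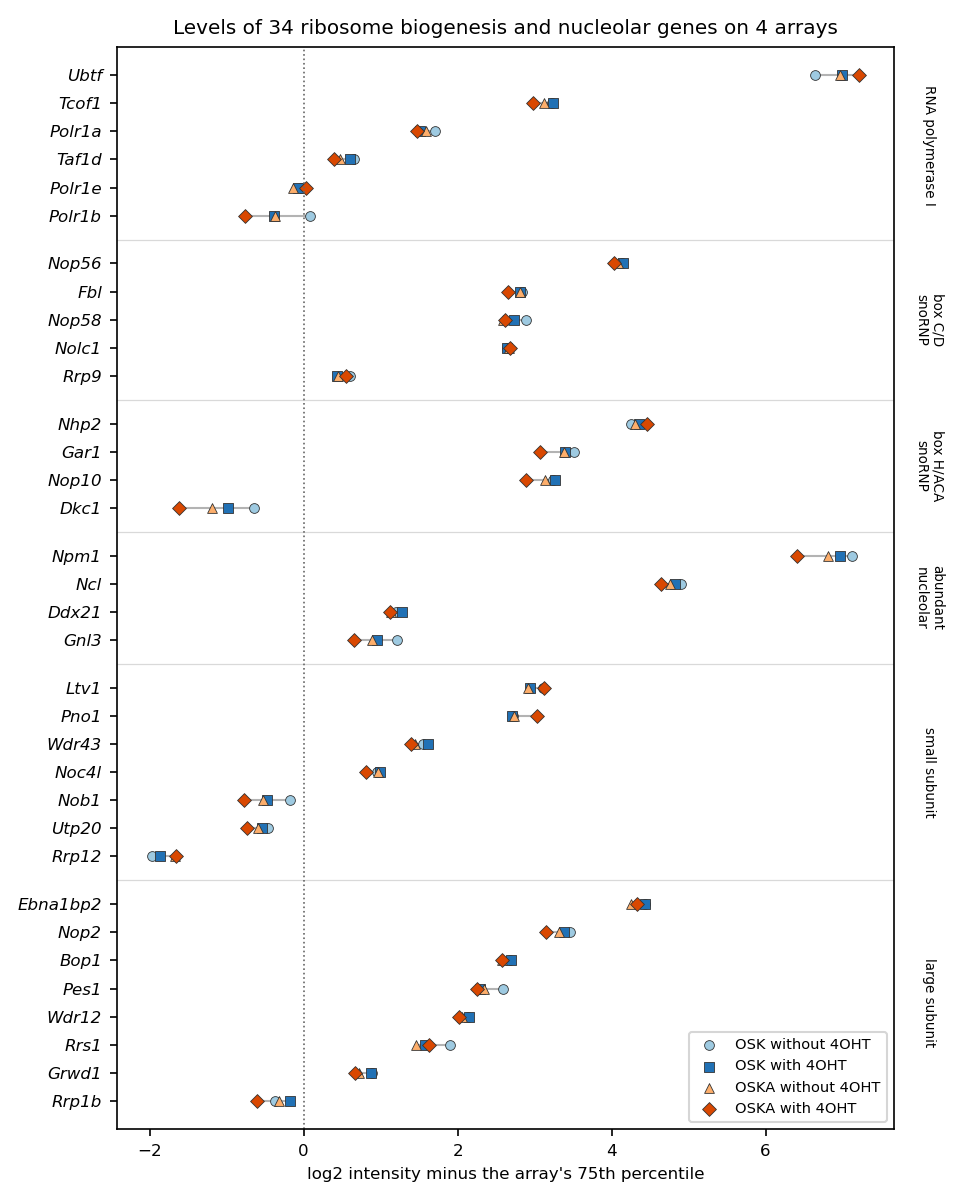
Level of each of the 34 members on each of the 4 arrays (x axis, log2 intensity minus the 75th percentile of the array), grouped by role; each marker is 1 array of 1 group and the grey line joins the lowest and the highest array. Most genes keep within a narrow range, with the diamond of AKT-activated cells at the left end for Dkc1, Npm1, Polr1b and Gar1 and at the right end for Pno1.

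Across the members, the array of AKT-activated cells held the lowest of the 4 levels for 22 of 34 genes, against 37.5% of the 19540 genes measured on all arrays. The lowest level lay on the array of OSKA cells without 4OHT for 6 members (18.8% of all genes), of OSK cells without 4OHT for 4 (27.2%) and of OSK cells with 4OHT for 2 (16.6%). The highest level lay in OSK cells without 4OHT for 17 members (31.6% of all genes), in OSK cells with 4OHT for 10 (22.1%), in AKT-activated cells for 7 (27.3%) and in OSKA cells without 4OHT for 0 (19%). For 14 members OSK cells without 4OHT had the highest and AKT-activated cells the lowest level, a pattern found in 18.6% of all genes. These 14 were Polr1a, Polr1b, Taf1d, Fbl, Dkc1, Gar1, Ncl, Npm1, Gnl3, Utp20, Nob1, Nop2, Pes1 and Grwd1. The count of this pattern was between 13 and 15 under other scalings, except that of the spike-in probes, which gave 21 members and 42.1% of all genes. The 4 genes with the reverse order, lowest in OSK cells without 4OHT and highest in AKT-activated cells, were Ubtf, Nolc1, Nhp2 and Rrp12, while 12.0% of all genes had this order. The other probes of Ubtf and Nolc1 did not have it and were highest in OSK cells without 4OHT. Among the 14 genes of the downward pattern, the further probes of Polr1a, Ncl and Pes1 were highest in OSK cells without 4OHT but had their lowest level elsewhere than in AKT-activated cells.

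The differences behind these orders were small. No member changed 2-fold in any of the 4 contrasts, where 2.91% of all genes did with 4OHT in OSKA cells, 0.886% with 4OHT in OSK cells, 2.02% when OSKA was set against OSK in the absence of 4OHT and 3.04% in its presence. The median range over the 4 arrays was 0.26 for the members, 0.28 for the 6513 brightest genes and 0.36 for all genes measured on the 4 arrays. Of the 34 members, 15 (44.1%) differed at least 1.2-fold in any contrast, as did 62.6% of all genes. The contrasts share arrays, so they are given side by side and do not support each other.

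With 4OHT in OSKA cells, the comparison that reads AKT activation, the median difference of the 34 members was −0.07, and that of 20300 genes was −0.03. Of the members 12 (35.3%) lay above 0, where 45.2% of all genes did, and 22 below, and 13 lay above the median gene. Only Pno1 was at least 1.2-fold higher, while 15.3% of all genes were. It was 1.24-fold higher (log2 difference 0.31, software error 0.20). Dkc1, Polr1b, Npm1, Gar1 and Rrp1b were at least 1.2-fold lower, 5 of 34 members (14.7%) against 19.4% of all genes. Dkc1 was lowest at 0.739-fold (−0.44, software error 0.21), followed by Polr1b at 0.758-fold (−0.40, software error 0.21) and Npm1 at 0.760-fold (−0.40, software error 0.20). Gar1 gave −0.30 and Rrp1b −0.28. Just short of 1.2-fold were Nob1 (−0.25), Nop10 (−0.24), Ubtf (0.24) and Gnl3 (−0.24). Quantile normalization added Ubtf to the higher members (2), and normexp with quantile normalization added Ubtf and Ltv1 (3). Under the latter Dkc1 was at −0.28, Npm1 (−0.24) and Rrp1b (−0.23) fell short of 1.2-fold, and Nop10 passed it.

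In OSK cells, where 4OHT has no AKT-MER to act on, the median difference of the members was −0.03 against 0.00 for 19861 genes. Above 0 were 14 members (41.2%) and 49.4% of all genes. Ubtf was 1.27-fold higher (0.34), the only member past 1.2-fold upwards, where 15.4% of all genes were, but its other probe gave −0.0195, and with spike-in scaling, quantile normalization or the mean of its probes it did not pass. Lower by at least 1.2-fold were 6 members (17.6%), against 12.3% of all genes. They were Polr1b (−0.48), Dkc1 (−0.33), Rrs1 (−0.33), Pes1, Nob1 and Gnl3 (−0.26). Rrp1b gave 0.20 and Rrp12 0.11, the highest after Ubtf. Polr1b and Dkc1 were thus lower with 4OHT in cells with and in cells without AKT-MER, but with normexp and quantile normalization Dkc1 (−0.25), Nob1 (−0.25) and Gnl3 (−0.23) fell short of 1.2-fold in OSK cells. The difference between the 4OHT effects of OSKA and OSK cells had a median of −0.04 over the 34 members, the same as over all genes, and ran from −0.48 (Rrp1b) to 0.51 (Rrs1). It was −0.25 for Npm1, −0.10 for Dkc1, 0.08 for Polr1b and 0.31 for Pno1. None of these differences was tested. Scaling to the spike-in probes moved the median of all genes in OSK cells by −0.31 and turned the values of Rrp1b and Rrp12 to −0.11 and −0.20, with 28 members and 58.6% of all genes at least 1.2-fold lower. Relative to all genes the median of the members was −0.03 under either scaling.

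OSKA cells were set against OSK cells without 4OHT, where AKT-MER should be idle. The median of the members was −0.13 and that of 20183 genes −0.02, and 7 of 34 members lay above the median gene. Ubtf (0.32) and Rrp12 (0.30) were at least 1.2-fold higher, 2 members against 18.2% of all genes, but both turned lower under spike-in scaling, which moved all genes of this contrast by −0.46 and left 76.9% of them at least 1.2-fold lower. Lower by at least 1.2-fold were 7 members (20.6%), against 15.2% of all genes. They were Dkc1 (−0.54), Polr1b (−0.45), Rrs1 (−0.45), Nob1 (−0.35), Gnl3 (−0.32), Npm1 (−0.32) and Nop58 (−0.30). Rrp1b, at 0.06, had the highest value after Ubtf and Rrp12. Dkc1 and Polr1b were the only members at least 1.2-fold lower in all 4 contrasts. Of all genes, 1229 of 19540 differed at least 1.2-fold in all 4 contrasts, in either direction. With normexp and quantile normalization Polr1b was the only member lower by this much in all 4. Rrp12 did not pass with quantile normalization (0.25), nor did Ubtf with its other probe (−0.20).

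With 4OHT, the median difference of OSKA from OSK cells was −0.15 for the members and −0.05 for 19846 genes, and 11 of 34 members lay above the median gene. Pno1 was 1.25-fold higher (0.32, software error 0.20), the only member past 1.2-fold upwards, where 15.7% of all genes were. Ubtf (0.22) and Rrp12 (0.21) came next. Lower by at least 1.2-fold were 9 members (26.5%), against 22.5% of all genes. Dkc1 was at 0.642-fold (−0.64, software error 0.21), Npm1 at 0.677-fold (−0.56, software error 0.20) and Rrp1b at 0.744-fold (−0.43, software error 0.21). The others were Polr1b, Nop10, Gar1, Nob1, Gnl3 and Tcof1, between −0.38 and −0.26. Of these 9 genes, Dkc1 alone was past 1.5-fold. With normexp and quantile normalization Tcof1, Gnl3 and Nob1 fell short of 1.2-fold, between −0.26 and −0.22, and Ubtf passed it upwards (0.37). The other probe of Ubtf gave −0.265 in this contrast, past 1.2-fold downwards. Spike-in scaling moved all genes of this contrast by −0.14 and left 39.1% of them at least 1.2-fold lower.

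**Figure D2:**
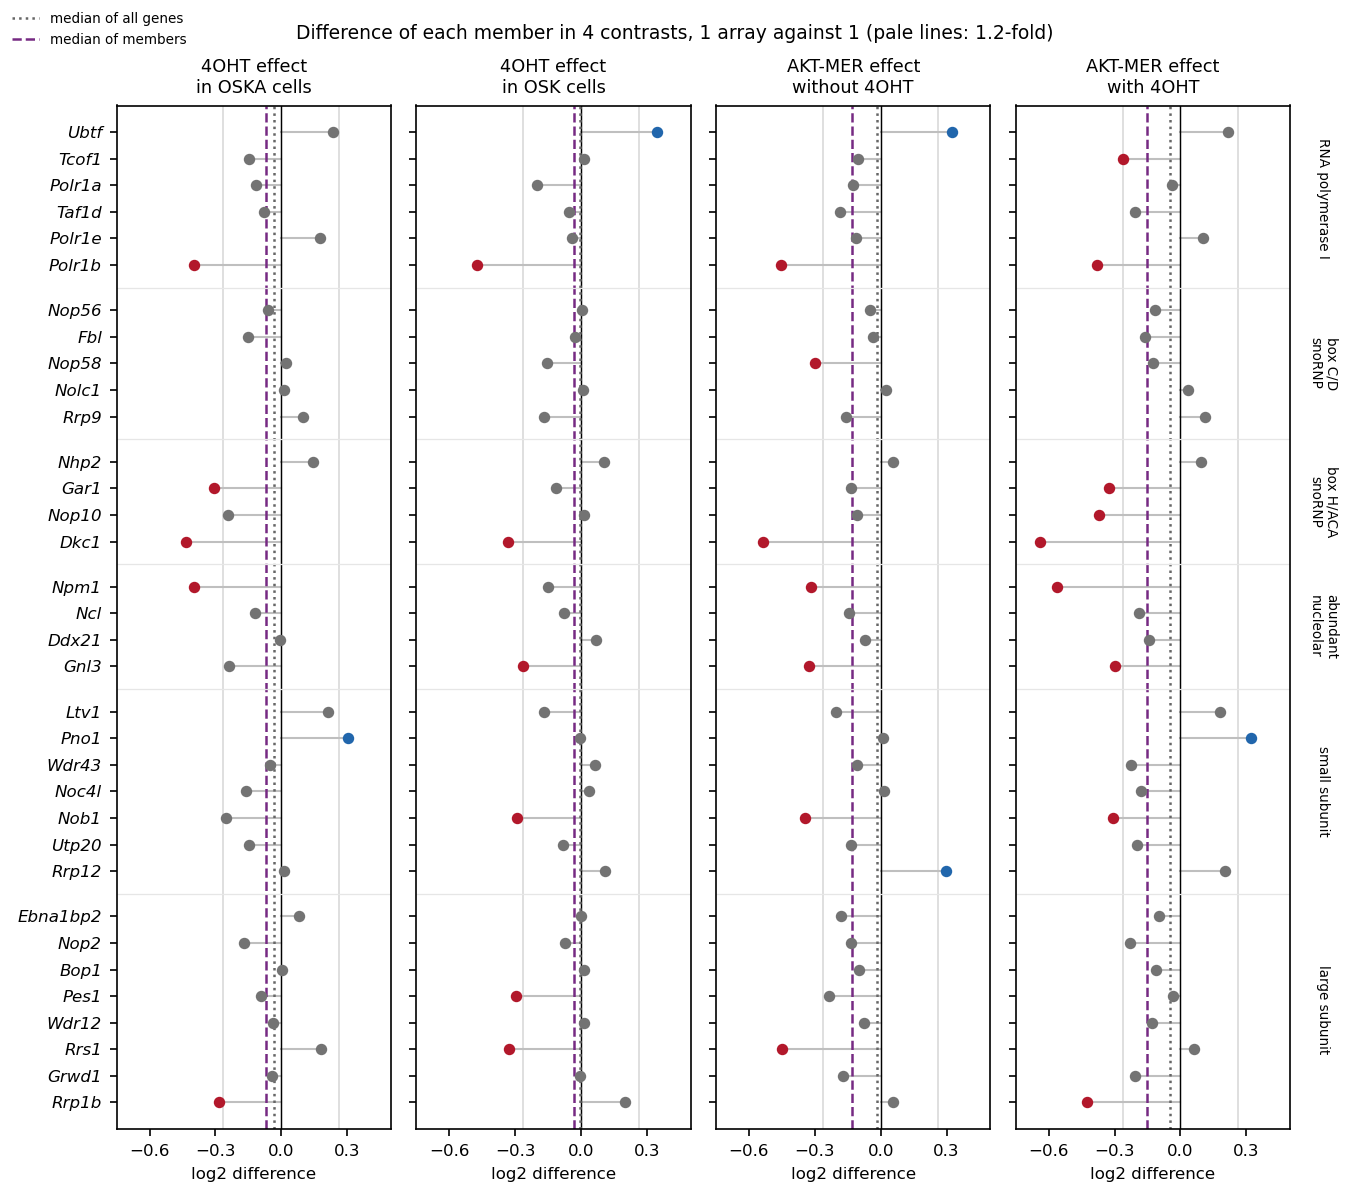
Log2 difference of each member in the 4 contrasts, each 1 array minus another; red points are at least 1.2-fold lower, blue points at least 1.2-fold higher, the pale lines mark 1.2-fold, the dashed line is the median of the members and the dotted line that of all genes. The points of Dkc1 and Polr1b are red in all 4 panels, while Pno1 is blue only in the panels that hold the AKT-activated array.

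By role, the box H/ACA genes had the lowest median of the 6 roles with 4OHT in OSKA cells, −0.27 over 4 genes, and also between OSKA and OSK cells with 4OHT, at −0.35. Of these 4 genes, 2 and 3 were at least 1.2-fold lower in these contrasts, where 19.4% and 22.5% of all genes were, and Nhp2 was higher in both, by 0.14 and 0.10. The abundant nucleolar proteins followed, with medians of −0.18 and −0.24 over 4 genes, none of them above 0 by its brightest probe. The other probes of Ncl (0.05) and Ddx21 (0.06) were above 0 with 4OHT in OSKA cells, and that of Ddx21 (0.09) also between OSKA and OSK cells with 4OHT. The polymerase I genes had medians of −0.10 and −0.12 (−0.10 and −0.24 with the other probe of Ubtf), the small subunit factors −0.05 and −0.18, the large subunit factors −0.04 and −0.12, and the box C/D genes 0.01 and −0.11. With so few genes per role each median is the value of 1 or 2 members. The 7 members with an E-box in their window had a median of −0.05 with 4OHT in OSKA cells, and the 21 without had one of −0.08. Between OSKA and OSK cells with 4OHT the medians were −0.20 and −0.15. The range of the former overlapped that of the latter in each of the 4 contrasts.

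Of the 34 members, 15 had more than 1 probe, and 19 further probes were measured on all arrays. With 4OHT in OSKA cells 10 of these 19 had the same sign as the brightest probe, with a median gap of 0.10 between them. Between OSKA and OSK cells with 4OHT 14 of 19 had the same sign. All 5 probes of Npm1 were lower in AKT-activated cells, by between 0.15 and 0.40 on the log2 scale against OSKA cells without 4OHT, and by between 0.29 and 0.56 against OSK cells with 4OHT. The direction for Npm1 was the same for every probe. Ubtf was the opposite case, with differences of −0.09 and −0.26 for its other probe where the brightest gave 0.24 and 0.22. Pes1 gave −0.09 and 0.20 with 4OHT in OSKA cells, and Ebna1bp2 gave 0.08, −0.01 and −0.20. The other probe of Polr1b did not pass the background filter on any of the arrays, and Dkc1, Gar1, Pno1, Nob1, Rrs1 and Rrp1b had 1 probe each.

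**Figure D3:**
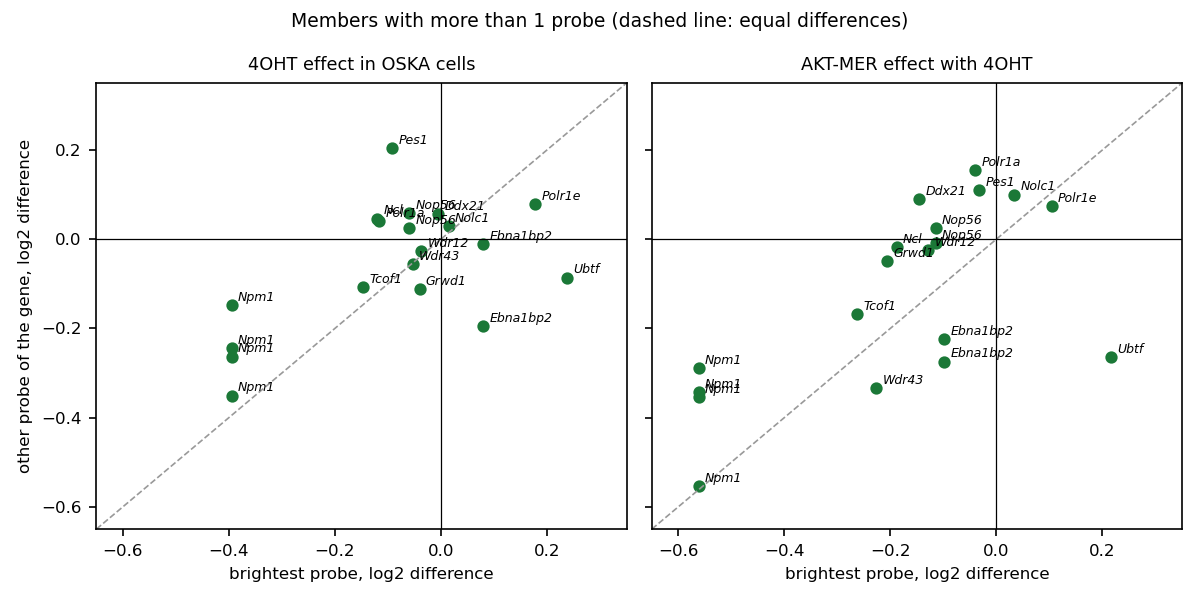
Log2 difference of every further probe of a member (y axis) against that of its brightest probe (x axis), with 4OHT in OSKA cells and between OSKA and OSK cells with 4OHT; each point is 1 probe, and on the dashed line both are equal. All Npm1 points lie in the lower left part of both panels, and the Ubtf point lies at 0.24 and −0.09 in the left panel.

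The further genes of the pathway were read from lists of the same processes. Of 45 other large subunit genes, 8 were at least 1.2-fold lower and 0 higher with 4OHT in OSKA cells (median −0.05), beside 19.4% and 15.3% of all genes, which also stand beside the counts of the other lists in this contrast. The 8 genes are 17.8% of that list. Las1l, a nuclease of the spacer between ribosomal RNAs, was at 0.678-fold (−0.56), and Nop53, a docking protein for the exosome, at 0.755-fold (−0.41). Of 43 other small subunit genes measured, 2 were lower and 3 higher (median −0.03). Pdcd11 gave −0.45 (its other probe −0.09) and Imp3 −0.30, and Nol10 gave 0.43 and Esf1 0.27. Of 11 other polymerase I genes measured, Taf1a alone was past 1.2-fold, at −0.39. Of 11 snoRNP assembly genes, Shq1, a chaperone of dyskerin, was the only one past 1.2-fold, at −0.35, while its other probe gave 0.30. Of 14 nuclear exosome genes, Exosc7 gave −0.29 and Mphosph6 0.32. With normexp and quantile normalization Taf1a (−0.08), Shq1 (−0.11), Exosc7 (−0.23), Esf1 (0.26) and Nol10 (0.22) no longer passed 1.2-fold, and Taf1a, Shq1 and Nol10 were dim, at levels below −2 on all arrays. The medians of these 5 lists, relative to all genes, lay between −0.09 and 0.00 in this contrast. Between OSKA and OSK cells without 4OHT, 8 of 43 other small subunit genes lay above 0 (median −0.12), as did 11 of 45 other large subunit genes (median −0.09). Of all 20183 genes measured in that contrast, 47.0% lay above 0 (median −0.02).

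Myc, the transcription factor held to drive it, lay at 1.70, 1.47, 1.07 and 0.40 in the order of arrays used above. It was lowest in AKT-activated cells and differed by more than any member, at 0.626-fold of the level of OSKA cells without 4OHT (−0.67). Against OSK cells the differences were −0.62 without 4OHT and −1.07 with 4OHT. Mycn was dim, at −3.11, −3.73, −3.85 and −3.50, and gave 0.35 with 4OHT in OSKA cells (0.19 with normexp and quantile normalization). Max, the shared partner, lay at 3.74, 3.8, 3.74 and 3.59, with a difference of −0.15 with 4OHT in OSKA cells. Of 10 measured genes of the MYC and MAX network 2 were at least 1.2-fold higher and 3 lower with 4OHT in OSKA cells, among them Mlx (0.38) and Mnt (−0.52). Among 25 measured genes of the mTORC1 pathway 4 were higher and 5 lower (median 0.01). Ddit4, an inhibitor of mTORC1, was 1.83-fold higher (0.87), and it lay at 4.04, 3.93, 4.53 and 5.41 on the 4 arrays. Sesn3, another inhibitor, gave 0.51, while Pdcd4, a repressor of translation, gave −0.57 and Deptor, an mTOR inhibitor, −0.38.

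Among 28 translation initiation factors, 2 were higher and 3 lower with 4OHT in OSKA cells (median 0.00). Eif4b was at 0.729-fold (−0.46) and Eif3e at −0.30, against 0.70 for the dim Eif5b (0.25 with normexp and quantile normalization) and 0.27 for Eif4a1. Among 27 genes of nucleotide supply and other MYC targets, 1 was higher and 2 were lower (median −0.04). Ldha, a glycolytic enzyme that hypoxia also induces, gave 0.35. The purine synthesis genes Paics and Atic gave −0.50 and −0.30, but another probe of Atic gave 0.19. Paics lay at 4.34, 4.16, 3.75 and 3.25, in the same downward order as Myc and Dkc1. Marker lists of other cell types and states differed between the arrays too. Of 14 mitotic markers, 12 were measured with 4OHT in OSKA cells, with a median of 0.20 and 12 of 12 above 0. The summed level of the mitotic markers was 71.6 in OSKA cells without 4OHT and 83 with 4OHT. In OSK cells 7 of 12 were above 0, and between OSKA and OSK cells with 4OHT the median was 0.22, with 10 of 12 above 0. Fibroblast markers had medians of 0.18 between OSKA and OSK cells both without and with 4OHT, with 6 and 5 of 9 genes above 0. Pluripotent cell markers had medians of −0.19 with 4OHT in OSKA cells and −0.37 between OSKA and OSK cells with 4OHT, with 3 and 1 of 7 measured genes above 0. Macrophage and leukocyte markers had medians of 0.56 with 4OHT in OSK cells and 0.52 between OSKA and OSK cells without 4OHT, with 5 of 6 genes above 0 in each, and of −0.17 with 4OHT in OSKA cells and −0.19 between OSKA and OSK cells with 4OHT, with 1 of 6 above 0 in each. Epithelial markers (6 measured) had medians of 0.21, −0.22, −0.17 and −0.34 in the order 4OHT in OSKA cells, 4OHT in OSK cells, OSKA against OSK cells without 4OHT and with 4OHT. Endothelial markers (3 measured) had medians of 0.00, −0.01, −0.36 and −0.36, with Cdh5 not above background on any array. The part of dividing or other cells in the members' values was not tested.

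**Figure D4:**
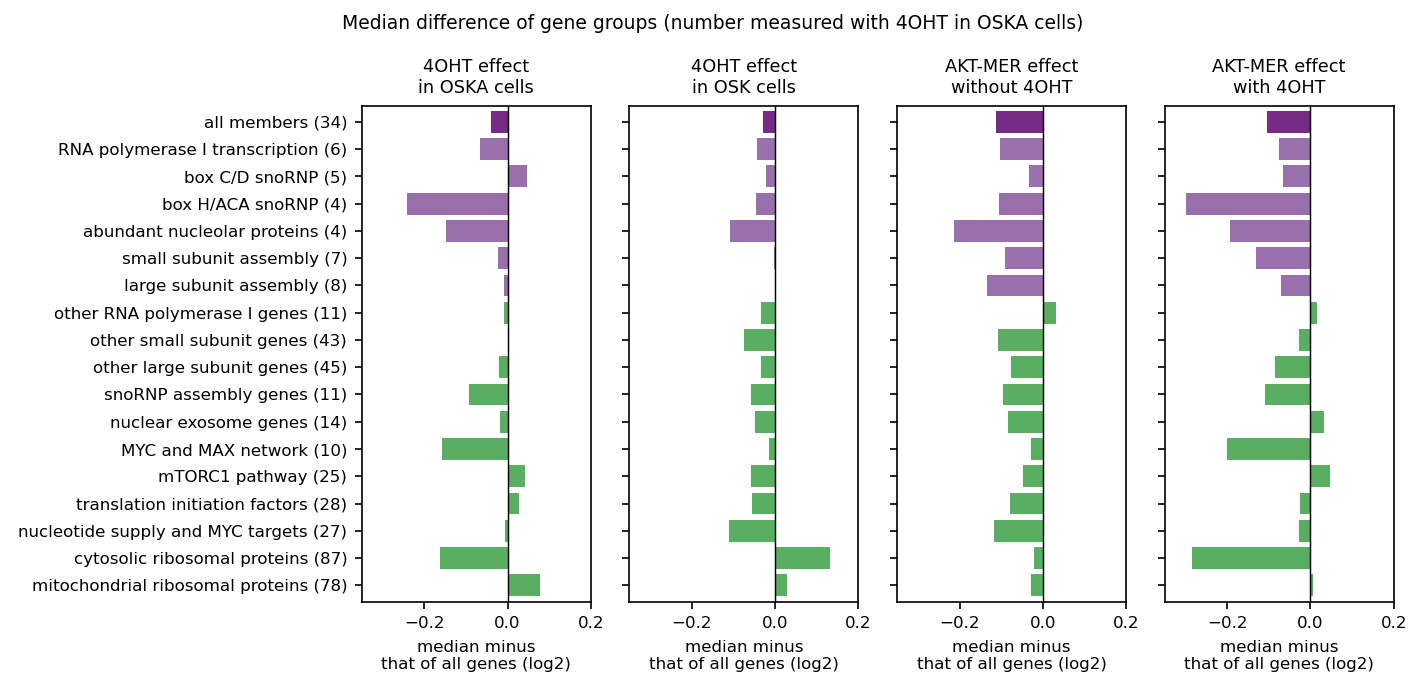
Median log2 difference of the members, of their 6 roles (purple) and of the other gene lists (green), minus the median of all genes, in the 4 contrasts; the number of genes measured with 4OHT in OSKA cells stands in brackets. The bars of the members reach from −0.03 to −0.11, and that of the cytosolic ribosomal proteins with 4OHT between OSKA and OSK cells reaches −0.28.

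Ribosomal proteins are what the members help to assemble. Cytosolic ribosomal protein genes, 87 of 89 measured, had a median of −0.19 with 4OHT in OSKA cells and one of 0.13 in OSK cells, with 9 and 82 genes above 0. Of all genes, 45.2% and 49.4% lay above 0. With quantile normalization these medians were −0.09 and 0.01, so the higher level in OSK cells was not seen under it. Spike-in scaling, which shifts all genes alike, gave −0.18 in OSK cells. The list was made from gene names and holds a few genes such as Rps23rg1 and Rps19bp1 that are no ribosomal protein genes proper. Of these 87 genes, 75 were lowest in AKT-activated cells and 78 highest in OSK cells with 4OHT, against 37.5% and 22.1% of all genes. Between OSKA and OSK cells with 4OHT the median was −0.33, and 69 of 87 genes (79.3%) were at least 1.2-fold lower, against 22.5% of all genes and 9 of 34 members. Rps21 gave −0.51 and Rps23rg1 −0.62 with 4OHT in OSKA cells. Rpl31 was the only gene at least 1.2-fold higher there, at 0.47, while its other probes gave between −0.20 and −0.06. Mitochondrial ribosomal protein genes had a median of 0.05 with 4OHT in OSKA cells, against −0.03 for all genes, and 56 of 78 lay above the median gene. Between OSKA and OSK cells with 4OHT their median was −0.04, against −0.05 for all genes. With 4OHT in OSKA cells Mrpl18 gave 0.29 and Mrps25 0.28 (its other probe −0.19), and Mrps27 gave −0.45 and Mrpl9 −0.34.

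Ribosomal protein genes are among the brightest on the array, and other bright genes were lower too. Among the 977 brightest genes, leaving out ribosomal proteins, the median difference of OSKA from OSK cells with 4OHT was −0.24, with 45.5% of 896 genes at least 1.2-fold lower. Quantile normalization, which removes such shifts, left 9 of 87 ribosomal protein genes at least 1.2-fold lower in that contrast, and 8 of 34 members. The share of all genes under this normalization is not given, so neither count can be set against it. Relative to the median gene the ribosomal proteins moved from −0.28 to −0.07 under quantile normalization, and the members from −0.10 to −0.11. Npm1 and Ubtf are the members in that class of bright genes. Under quantile normalization Npm1 gave −0.41 in place of −0.56, and Ubtf gave 0.44 in place of 0.22. Dkc1, which is dim, gave −0.63 in place of −0.64. With normexp and quantile normalization Npm1 gave −0.36 and Dkc1 −0.46. The part of brightness in the values of the ribosomal protein genes was not tested further.

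**Figure D5:**
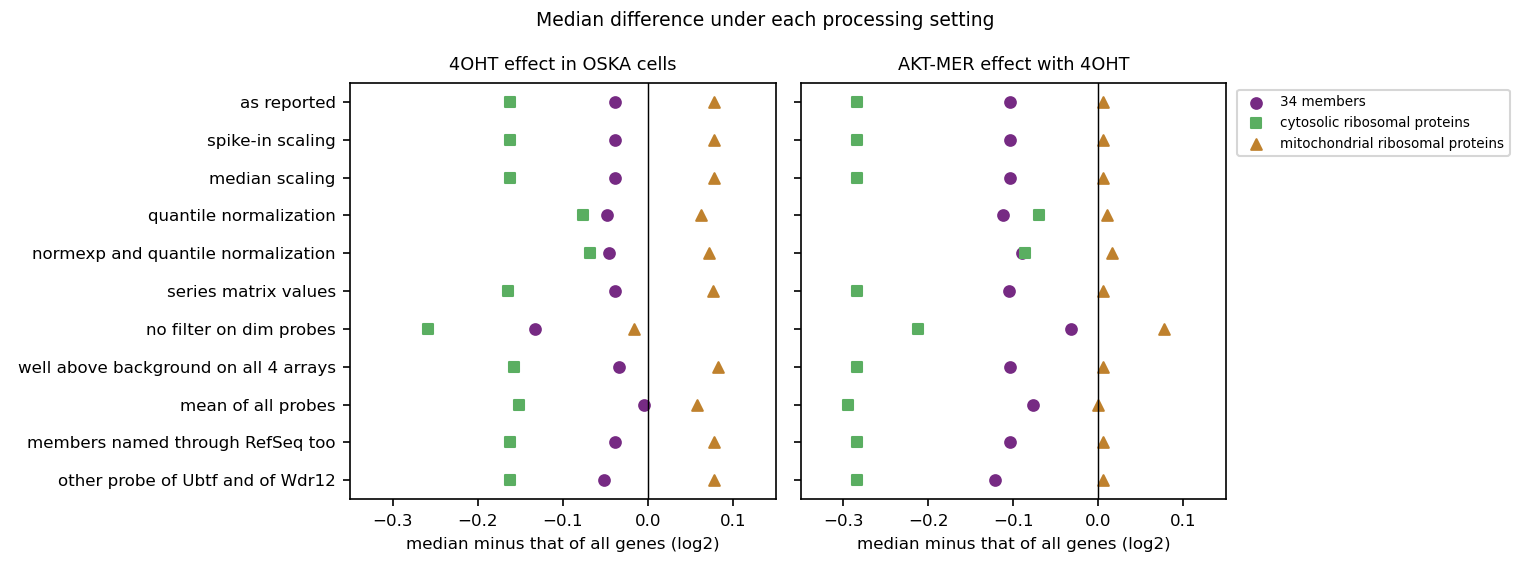
Median difference of the members and of the cytosolic and mitochondrial ribosomal protein genes, minus the median of all genes, under each processing setting (y axis), with 4OHT in OSKA cells and between OSKA and OSK cells with 4OHT. The members lie no lower than −0.13 in both panels, whereas the cytosolic ribosomal proteins move from −0.28 to −0.07 in the right panel under quantile normalization.

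A start with cytosine followed by at least 4 pyrimidines marks the messenger RNAs whose translation follows mTORC1 most closely. Such a start was annotated for 15 of 68 cytosolic ribosomal protein genes with a window (22.1%), for 2.99% of the genes measured on all arrays and for 0 of the 28 members. The annotated starts can be off by some bases, and the arrays measure messenger RNA and not its translation.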

How the data were processed

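RNA of 4 cultures (100 ng each, Cy3, 1 colour) was hybridised to 4 arrays of 1 slide. The authors deposited scanner files whose values are intensity on a linear scale, background-corrected by Agilent Feature Extraction 10.7.3.1 and not normalized between arrays. The deposited series matrix holds the same intensity, rounded (ratio 0.995 to 1.005). After log2, the 75th percentile of the array was subtracted, taken without control spots and without spots flagged by the scanner software (104 to 155 per array). Spots of a probe were averaged, the brightest probe stood for its gene, and differences were taken only where it was well above background on both arrays. Names came from the files, or through the accession from RefSeq (27509 of 55681 probes). Probe coordinates are NCBI37. The place of a probe in its transcript was not analysed. Differences were counted at 1.2-fold. There were no replicates, hence no test. Every member is named with its levels, along with the 10 largest differences with 4OHT in OSKA cells, the 3 highest and 3 lowest in the other contrasts, and up to 2 genes of each list in each direction past 1.2-fold. Alternatives were spike-in, median and quantile scaling, normexp, the series matrix, other filters, probes and names, thresholds of 1.5- and 2-fold and, chosen after seeing the data, the other probe of Ubtf and of Wdr12 and medians relative to all genes. Members and lists were chosen with earlier results of these data known. Python 3.11.15 with pandas 2.3.3 and, for normexp (offset 50), R 4.3.3 with limma 3.58.1 were used, and the counting was tested on simulated data. The number of arrays limits the precision.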

Additional observations from a re-analysis of the deposited data

Results flagged for a closer look

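For 4 members the array pairs moved in opposite directions with 4OHT in OSKA and in OSK cells, each by more than the SD of repeated spots. How many of all genes moved in opposite directions by this rule was not counted. The 4OHT effect in OSKA cells minus that in OSK cells was 0.51 for Rrs1 (0.18 and −0.33), −0.48 for Rrp1b (−0.28 and 0.20), 0.38 for Ltv1 (0.21 and −0.17) and 0.27 for Rrp9 (0.10 and −0.17). Over all 19540 genes this value had an SD of 0.49, and over the 34 members one of 0.20. For cytosolic ribosomal protein genes the median of this value was −0.29, below 0 in 84 of 87 genes. For all genes it was −0.04, below 0 in 10617 of 19540. The median of the ribosomal protein genes was −0.11 under quantile normalization and 0.03 under spike-in scaling, which moved the value of all genes to 0.28. Under spike-in scaling Rrp1b was lower with 4OHT in both kinds of cells (−0.27 and −0.11), while Rrs1, Ltv1 and Rrp9 kept opposite directions. With 1 array per group none of these differences was tested.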

How the results depend on the processing

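No paired analysis was possible because each group had 1 array, and for the same reason no array could be left out. Median scaling, the series matrix, a filter on all 4 arrays and naming through RefSeq each left all 20 counts and medians of the members within 1.5 times (counts) or the SD of a difference from repeated spots (medians). Spike-in scaling moved the median of members to −0.34 (4OHT in OSK cells), −0.59 (OSKA against OSK cells without 4OHT) and −0.29 (with 4OHT), with 28, 32 and 19 members at least 1.2-fold lower, beside 58.6%, 76.9% and 39.1% of all genes, and 0 higher in each. This scaling shifts all genes of an array alike, so the members' medians relative to all genes stayed at −0.03, −0.11 and −0.10; it reversed Rrp12 (−0.16) and Ubtf (−0.13) without 4OHT. Members at least 1.2-fold higher numbered 2 (quantile) and 3 (normexp and quantile) with 4OHT in OSKA cells, and 2 under both for OSKA against OSK cells with 4OHT. Without 4OHT they numbered 1 under quantile, normexp, the mean of probes and the other probe of Ubtf, and with 4OHT in OSK cells 0 under quantile, the mean of probes and that other probe, which gave Ubtf −0.0195 in OSK cells with 4OHT and −0.198 between OSKA and OSK cells without it. Normexp left 3 members lower with 4OHT in OSK cells. Members above the median gene numbered 8 (OSKA cells), 4 (OSK cells) and 11 (without 4OHT) with no filter on dim probes, and 8 in OSK cells with the mean of probes. With no filter the members' median relative to all genes was −0.13 with 4OHT in OSKA cells. This setting moved the median of all genes by 0.09 and 0.08 with 4OHT in OSKA and OSK cells. Between OSKA and OSK cells it moved that median by −0.07, both without and with 4OHT. The members' own values did not change. Relative to all genes they thus lay lower with 4OHT in both kinds of cells, and less low between OSKA and OSK cells. At 1.5-fold 0 members passed in any contrast, except 1 lower (Dkc1) for OSKA against OSK cells with 4OHT, and at 2-fold 0 passed. The cause of these shifts was not tested.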
